A study of Danio rerio with 6 samples.

Results

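The transcripts of 6 genes of cholesterol metabolism were examined in zebrafish testis tissue exposed to insulin-like 3 (Insl3), a hormone of the relaxin family made by Leydig cells. Of these, sqlea, cyp51, msmo1 and sc5d encode enzymes of sterol synthesis, and cel.1 and ch25h encode enzymes that act on finished cholesterol or its esters. The 6 genes were chosen by symbol from the genes that the study had called changed by Insl3 on these same 6 libraries, so their difference between the conditions is what selected them. It is given as a description, and the calls of the fit over all transcripts that appear below are no independent test of it. Each gene was read from 1 transcript named in the study's list of changed genes. All 6 were among the 46260 transcripts counted in every library and passed the filter on low counts. Other transcripts of the same genes were not used, so each value is the level of 1 transcript and may not be that of the whole gene.

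The tissue came from adult wild-type males, and each testis gave 1 library. Testes were kept in culture without hormone for 2 days and then for another 2 days either without (Basal, 3 libraries) or with zebrafish Insl3 at 100 ng/mL (Insl3, 3 libraries). The culture without hormone was meant to let the tissue's own Insl3 decline. How much of the peptide remained is not given, and the insl3 transcript could not be matched by name in these counts. A testis holds germ, Sertoli, Leydig, myoid and blood cells, and in such bulk samples fewer cells of a type and less RNA per cell cannot be told apart.

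Cholesterol is built from acetyl-CoA. The early steps make mevalonate and then squalene, which squalene epoxidase and the later enzymes turn into lanosterol and, by removal of methyl groups and movement of double bonds, into cholesterol. In mammals most of these genes are switched on together by the transcription factor SREBP-2 when the membranes of the endoplasmic reticulum are poor in sterol, and they are turned down by cholesterol and by oxysterols, including the product of ch25h. In a testis, cholesterol is the starting material of androgens in Leydig cells and a component of the membranes of all cells.

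Total counts ranged from 20967304 to 28939006 per library. The counts of libraries of the same condition differed far beyond counting error (chi-square per degree of freedom between 38.2 and 125), so none was a repeat of another. Libraries with the same replicate number resembled each other across the conditions, and the pairs of equal number are therefore given alongside the group values. No transcript of the Leydig and Sertoli cell markers looked for could be matched by name, and of the germ cell markers only klhl10a could, so the cell types of the tissue were not checked further. Names came only from the study's list of changed genes, so a missing match says nothing about the level of a marker. Of the 36363 transcripts tested, edgeR's quasi-likelihood test of condition alone called 0 at an adjusted p of 0.05 and 538 unadjusted. The 538 are a smaller share than that threshold would let through if nothing differed, so they do not count changed transcripts. With the replicate number as a block, the same test called 0 at an adjusted p of 0.05 and 4920 unadjusted. DESeq2 called 1 at an adjusted p of 0.05.

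The 4 synthesis enzymes were lower with Insl3 in every pair, with a median log2 fold change of -1.15 against 0.01 over all transcripts tested, while cel.1 and ch25h were higher in every pair. Of all transcripts tested, 17.0% were lower in every pair, and 37.5% went the same way, up or down, in every pair. The size of the synthesis difference was uneven. It was 1.42-fold and 1.21-fold for the summed level of the 4 enzymes in pairs 1 and 2, and 5.55-fold in pair 3, which combined the Basal library with the highest and the Insl3 library with the lowest level.

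Squalene epoxidase a (sqlea, ENSDART00000110994.4, gene ENSDARG00000079946) adds oxygen to squalene, the first oxygen-requiring and a rate-controlling step of the pathway. Its level was 32.1, 39.0 and 86.2 CPM (read counts scaled to a common library size, with TMM factors) in Basal libraries 1, 2 and 3. With Insl3 it was 22.1, 31.3 and 14.1 CPM. Each Insl3 value was below each Basal value, but only just, since Basal 1 and Insl3 2 lay within 1 CPM of each other. Group means of 52.4 ± 29.4 and 22.5 ± 8.59 CPM (SD, n = 3 each) corresponded to a log2 fold change (Insl3 over Basal, as throughout) of -1.22, standard error 0.44. Within pairs 1, 2 and 3 the Basal level was 1.45, 1.25 and 6.12 times that with Insl3.

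The lanosterol demethylase cyp51 (ENSDART00000062551.4, gene ENSDARG00000042641), a cytochrome P450 that removes the first methyl group from the sterol ring system, had 76.3, 86.6 and 173 CPM in the Basal libraries. The Insl3 libraries had 53.1, 74.2 and 29.0 CPM. The libraries ranked as for sqlea, from Basal 3 at the top to Insl3 3 at the bottom, and the groups were again separated by a small gap between Basal 1 and Insl3 2. The means were 112 ± 53.3 and 52.1 ± 22.6 CPM (SD, n = 3 each). The fitted log2 fold change was -1.10, standard error 0.43. The Basal level exceeded that with Insl3 by 1.44, 1.17 and 5.98 times in pairs 1, 2 and 3.

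Methylsterol monooxygenase 1 (msmo1, ENSDART00000078277.4, gene ENSDARG00000055876) carries out the next demethylations. Basal libraries 1, 2 and 3 had 23.7, 31.2 and 84.1 CPM, and the Insl3 libraries had 18.4, 25.3 and 16.9 CPM. Here the groups overlapped, because Insl3 2 was above Basal 1. Basal 3 alone set the Basal spread, at 3.06 times the mean of the other Basal libraries, while the Insl3 libraries lay close together. The means of 46.3 ± 32.9 and 20.2 ± 4.47 CPM (SD, n = 3 each) gave a log2 fold change of -1.20 with a standard error of 0.47. Pair by pair the Basal level was 1.29, 1.23 and 4.98 times the Insl3 level.

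Sterol-C5-desaturase (sc5d, ENSDART00000065600.4, gene ENSDARG00000044642) introduces a late double bond into the sterol ring. It had 8.39, 12.4 and 16.0 CPM in the Basal libraries and 5.05, 8.96 and 4.86 CPM with Insl3. The groups overlapped, with Insl3 2 above Basal 1. The means were 12.3 ± 3.78 and 6.29 ± 2.31 CPM (SD, n = 3 each), and the log2 fold change was -0.96 with a standard error of 0.35. Its pairs were more even than those of the other synthesis enzymes, at 1.66, 1.39 and 3.28 times higher in Basal.

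**Figure D1:**
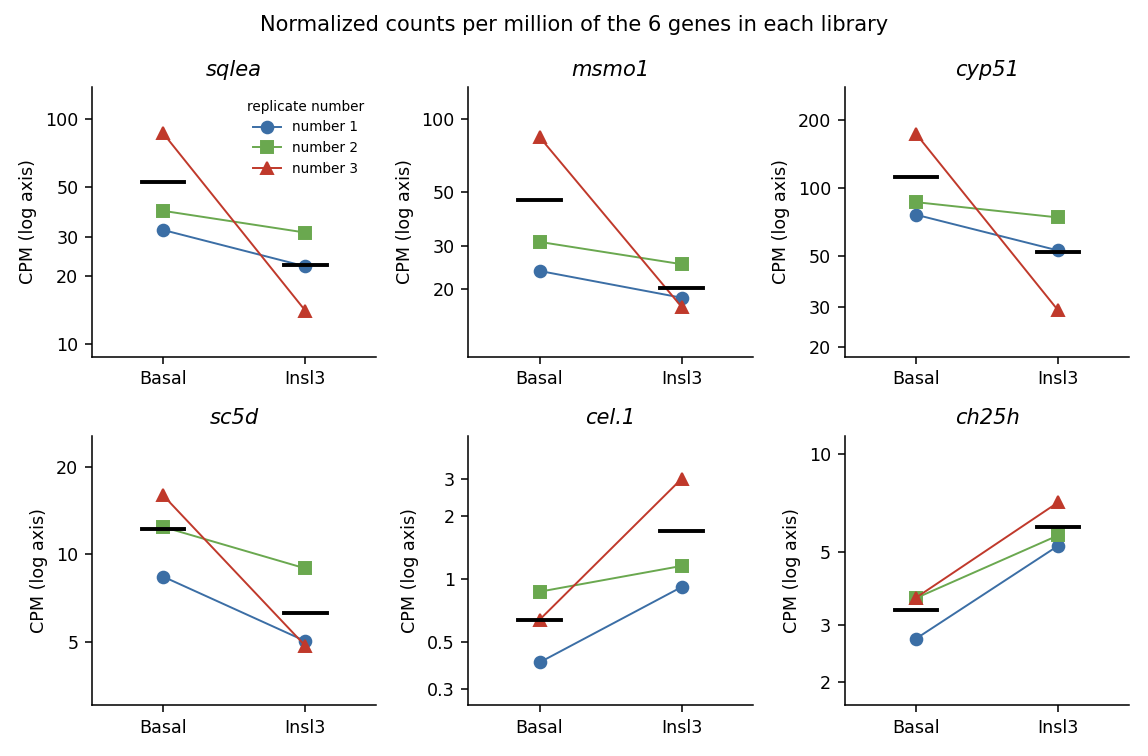
Level of each gene in CPM (log axis) in the 3 Basal and 3 Insl3 libraries. Lines join libraries of the same replicate number and black bars are group means. The line of number 3 is the steepest for sqlea, msmo1, cyp51, sc5d and cel.1, whereas the lines of ch25h run nearly parallel.

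The carboxyl ester lipase cel.1 (ENSDART00000143952.1, gene ENSDARG00000017490) belongs to the family of bile salt-dependent lipases, which in mammals are secreted by the pancreas and split cholesteryl esters and other lipid esters. It was counted rarely. The Basal libraries held 13, 26 and 12 counts, and the Insl3 libraries 24, 24 and 60 counts. This corresponds to 0.401, 0.871 and 0.640 CPM against 0.917, 1.16 and 3.01 CPM. The Insl3 values were all above the Basal ones, yet Basal 2 and Insl3 1 lay within counting error of each other (exact Poisson 95% intervals of 17.0 to 38.1 counts and 15.4 to 35.7 counts), and only Insl3 3, with 60 counts (45.8 to 77.2), stood clear of all others. The means were 0.637 ± 0.235 and 1.69 ± 1.14 CPM (SD, n = 3 each). The fitted log2 fold change was 1.40, standard error 0.58. Within pairs the Insl3 level was 2.29, 1.33 and 4.70 times the Basal level. The name marks a tandem duplicate, so reads shared with its copy could make this value uncertain.

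Cholesterol hydroxylase (ch25h, ENSDART00000066439.6, gene ENSDARG00000045190) makes a side-chain oxysterol that in mammals restrains SREBP-2 processing and is produced by stimulated macrophages. It was counted 88, 108 and 68 times in the Basal libraries and 137, 117 and 142 times with Insl3, or 2.72, 3.62 and 3.63 CPM against 5.24, 5.64 and 7.12 CPM. The groups did not overlap, and each was narrow, with the highest library at 1.34 times the lowest in Basal and at 1.36 times with Insl3. The means were 3.32 ± 0.52 and 6.00 ± 0.99 CPM (SD, n = 3 each), which gave a log2 fold change of 0.85 with a standard error of 0.28. Unlike the other genes, ch25h differed by nearly the same factor in each pair, at 1.93, 1.56 and 1.96 times higher with Insl3.

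The model of condition alone gave an unadjusted p under 0.05 for 4 of the 4 synthesis enzymes, lower with Insl3, and for cel.1 and ch25h, higher with Insl3. Of all transcripts tested, 0.938% were called lower and 0.542% higher in this way. With the replicate number as a block all 6 genes were again called, beside 6.13% of all transcripts lower and 7.40% higher. The Insl3 libraries lay entirely below the Basal ones for 2 of the 4 synthesis enzymes (sqlea and cyp51) and for 2.66% of all transcripts, and entirely above them for cel.1 and ch25h and for 2.55% of all transcripts. Nothing can be read from these counts, because the genes were picked for their difference in this contrast.

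The calls depended on which libraries were included. Over all transcripts, 538 were called with all 6 libraries. The number was 610, 547 and 1472 without Basal 1, 2 and 3, and 885, 645 and 170 without Insl3 1, 2 and 3. Without Basal 3 the log2 fold changes were -0.65 for sqlea, -0.64 for cyp51, -0.43 for msmo1 and -0.72 for sc5d, and of the 6 genes only ch25h kept an unadjusted p under 0.05. Without Insl3 3 none of the 6 kept it, and the values were -0.99, -0.84, -1.10 and -0.82 for the same 4 enzymes, 0.69 for cel.1 and 0.70 for ch25h. Without Insl3 1 the calls of the 4 synthesis enzymes were lost although their values hardly moved (-1.21 for sqlea, -1.12 for cyp51, -1.13 for msmo1 and -0.83 for sc5d). Fewer calls were lost without Basal 1 (cel.1 at 1.14 and ch25h at 0.72), without Basal 2 (sc5d at -0.95 and cel.1 at 1.71) and without Insl3 2 (msmo1 at -1.39). Both libraries numbered 3 were also left out together, which was decided once the data had been seen. The log2 fold change was then -0.42 for sqlea, -0.36 for cyp51, -0.33 for msmo1 and -0.58 for sc5d. In that fit cel.1 had 0.70 and ch25h 0.77. Of the 6 genes ch25h alone kept its call, beside 755 called over all transcripts, and nothing can be read from this either. The sign was the same for every gene in each of the 13 alternative fits.

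**Figure D2:**
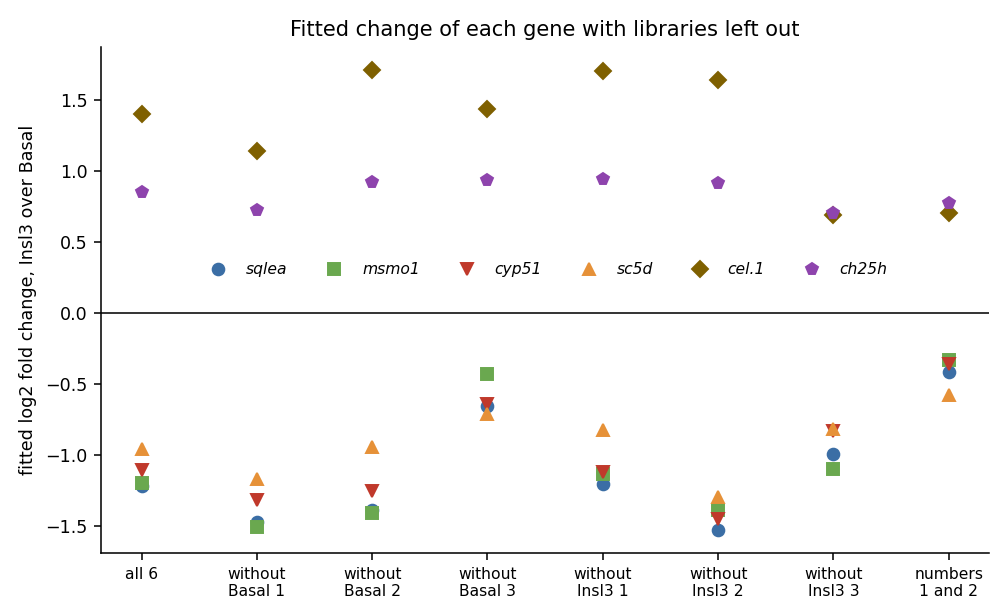
Fitted log2 fold change (Insl3 over Basal) of each gene with all 6 libraries, with each library left out, and with only the libraries numbered 1 and 2. Without Basal 3 the synthesis enzymes lie between -0.72 and -0.43. With numbers 1 and 2 alone they lie between -0.58 and -0.33, and ch25h stays between 0.70 and 0.94 over these fits.

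The synthesis enzymes varied together. Over the 6 libraries Pearson's r of their log2 CPM ranged from 0.89 (msmo1 and sc5d) to 0.99 (sqlea and cyp51). It was between 0.81 and 0.98 for deviations from the group means, which leave out only the mean difference between the conditions. The larger difference between the libraries numbered 3 stays in these deviations. Without the libraries numbered 3, r was between 0.958 and 0.995 over 4 libraries. These correlations are descriptions over few libraries that share the same scaling factors. The genes were chosen for their difference on these libraries. That choice favors a high r over the 6 libraries among genes that differ in the same direction. Of the other pairs of members, cel.1 and ch25h also varied together (r = 0.92, and 0.93 for the deviations), whereas the deviations of ch25h and the 4 enzymes had r between -0.12 and 0.36.

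Ratios of counts within a library do not depend on the scaling. The counts of sqlea were between 0.417 and 0.497 times those of cyp51 in all 6 libraries, a range of 1.19-fold, although the level of cyp51 itself differed by several times between Basal 3 and Insl3 3. The ratio was 0.456 ± 0.0385 in Basal and 0.441 ± 0.0388 with Insl3 (SD, n = 3 each), a difference smaller than the spread of either group. The ratio of msmo1 to cyp51 was less steady. It was 0.485 in Basal 3 and 0.583 in Insl3 3, and between 0.311 and 0.361 in the other libraries, so this ratio was high in both libraries numbered 3 irrespective of the hormone. The ratio of sc5d to cyp51 ranged from 0.0921 in Basal 3 to 0.168 in Insl3 3. Set against cyp51 in the same way, ch25h was at 0.0209 to 0.0418 in the Basal libraries and at 0.0760 to 0.246 with Insl3, and cel.1 was at 0.00369 to 0.0101 and at 0.0156 to 0.104.

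**Figure D3:**
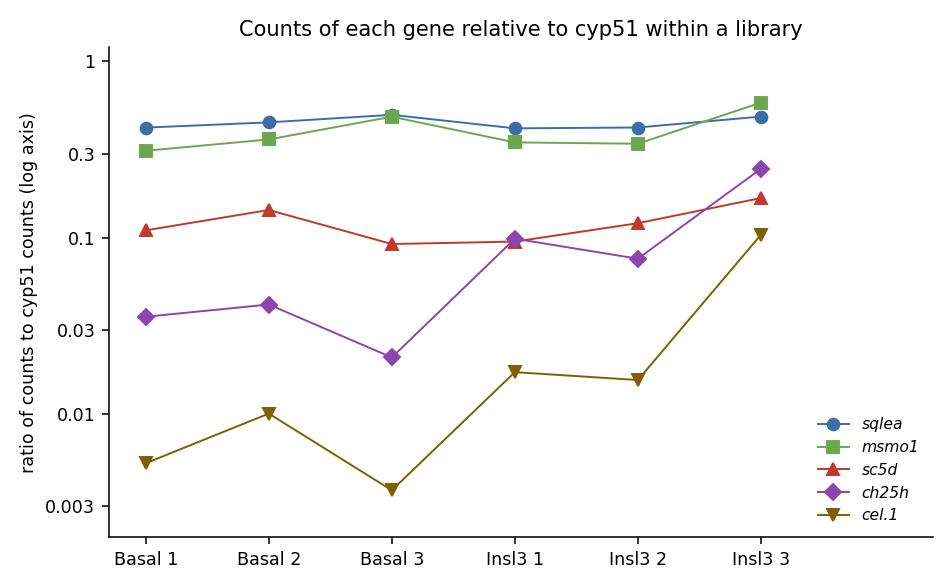
Counts of 5 genes divided by the cyp51 counts of the same library (log axis), in Basal libraries 1 to 3 and Insl3 libraries 1 to 3. The sqlea line stays between 0.417 and 0.497, whereas the ch25h and cel.1 lines lie higher in each Insl3 library than in any Basal library. That separation was fixed by the levels, since ch25h and cel.1 were higher and cyp51 lower in each Insl3 library than in any Basal library. The ratio also depends on transcript length, so only its changes along a line are comparable.

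On the log2 scale, the median fold change of the synthesis enzymes minus the mean fold change of cel.1 and ch25h was -2.28. The level of ch25h was 1.93%, 2.14% and 1.01% of the summed level of the 4 enzymes in the Basal libraries and 5.31%, 4.03% and 11.0% with Insl3. The groups did not overlap. This follows from the choice of genes, since ch25h by itself was higher in each Insl3 library than in any Basal library. The summed enzymes were likewise lower. The lowest Basal and the highest Insl3 percentage came from the libraries numbered 3.

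Of 62 further genes of sterol synthesis, uptake, storage, steroid formation and electron supply that were looked for, 12 had a named transcript, again because the study had called them changed on these libraries. All 12 passed the filter and were lower with Insl3, as were 49.3% of all transcripts tested. An unadjusted p under 0.05 was found for 9 without the replicate block (0.938% of all transcripts were called lower) and for 10 with it (6.13%). As for the 6 genes above, nothing can be read from these counts. The median log2 fold change of the 12 was -1.06. The median within-pair difference was -0.47, -0.63 and -2.04 log2 in pairs 1, 2 and 3, against 0.04, -0.0036 and 0.02 over all transcripts.

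Of the 12, 5 encode synthesis enzymes. The enzyme of acetyl-CoA condensation acat2, hmgcs1 and hmgcra of the steps to mevalonate, the squalene synthase fdft1 and dhcr7, which catalyses a last step to cholesterol, had a median log2 fold change of -1.02. The rate-limiting reductase hmgcra had 17.7, 30.2 and 49.5 CPM in Basal and 9.82, 23.7 and 12.03 CPM with Insl3. Its groups overlapped, whereas those of dhcr7 did not (11.0, 14.3 and 17.5 CPM against 7.80, 9.20 and 4.01 CPM). In pair 2 acat2 went the other way, with 1.17 CPM in Basal and 1.73 CPM with Insl3. The unadjusted p was under 0.05 for hmgcs1, hmgcra and dhcr7 without the block, and for fdft1 as well with it.

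Sterol-oxidizing enzymes such as msmo1 and sc5d receive electrons through microsomal cytochrome b5, encoded by cyb5a. The transcripts of cyb5a and of cyb5b, which encodes another form (type B), were lower with Insl3. Whether cyb5b serves these enzymes was not examined. The log2 fold change was -0.88 for cyb5a and -1.13 for cyb5b, each with a standard error of 0.35. Their groups did not overlap. The Basal libraries had 10.6, 11.5 and 21.1 CPM of cyb5a and the Insl3 libraries 9.10, 8.91 and 5.46 CPM.

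Among genes of uptake and storage, the low density lipoprotein receptor ldlra, which brings cholesterol into cells and is a classical SREBP-2 target in mammals, had 1.45, 4.05 and 9.34 CPM in Basal and 1.03, 2.07 and 1.25 CPM with Insl3. The groups overlapped, and the Basal level was 1.41, 1.96 and 7.45 times that with Insl3 in pairs 1, 2 and 3. The cholesterol transporter npc1l1 had a log2 fold change of -0.89 (standard error 0.36). The ester-forming soat2 had a log2 fold change of -2.02 with a standard error of 1.03. This value rested on Basal 3, which had 5.12 CPM against 0.185 and 1.11 CPM in Basal 1 and 2. In pair 1 soat2 was higher with Insl3. Looked for in a list of sterol-modifying and steroid enzymes, hsd17b12b and srd5a1 had log2 fold changes of -0.80 and -1.54. Of the 12 genes, srd5a1 was the one with its smallest difference in pair 3 (-1.56, -1.98 and -0.21 log2). It was counted rarely, with 27, 47 and 10 counts in Basal and 6, 7 and 9 counts with Insl3, so its pair values are uncertain.

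**Figure D4:**
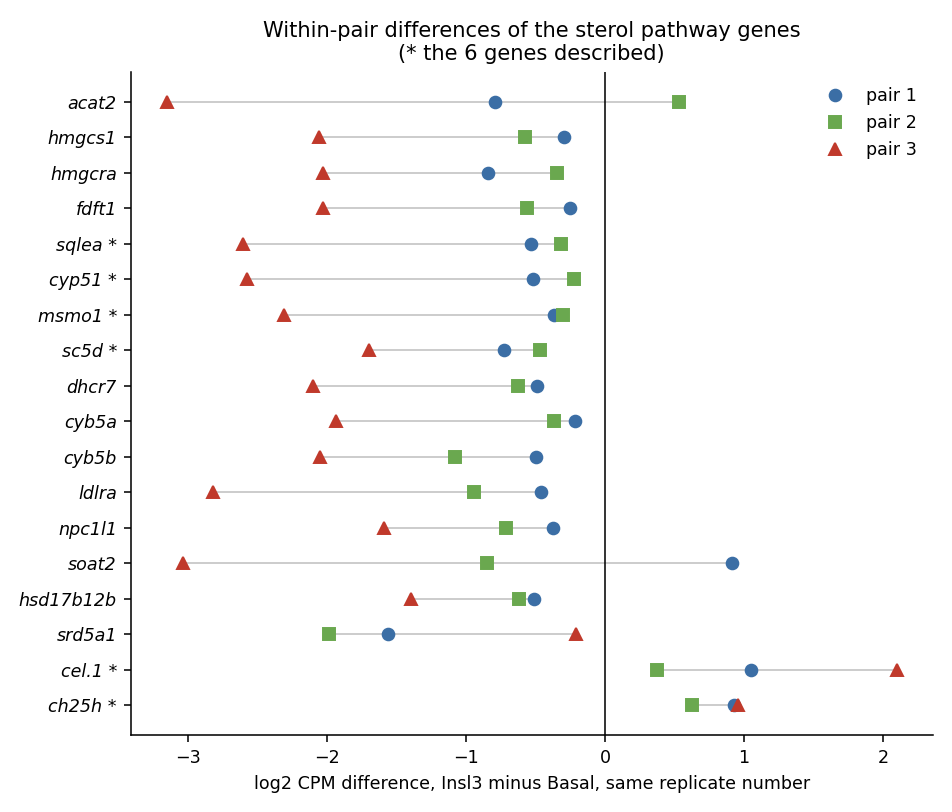
Difference of log2 CPM between the Insl3 and the Basal library of each replicate number, for 18 genes of the sterol lists. The synthesis enzymes come first, ordered by their place in the pathway, and the other genes follow, grouped by list. Pair 3 shows the most negative value for 15 of the 16 lower genes. The exception is srd5a1, which had only 6 to 47 counts per library. The values of cel.1 and ch25h lie above 0 in all 3 pairs. Pair 3 has the most negative value for 37.7% of all transcripts tested.

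For each of the 4 synthesis enzymes Basal 3 was the highest and Insl3 3 the lowest of the 6 libraries, a pattern shared by 2.55% of all transcripts. Markers of liver followed this pattern. Of 15 liver markers 8 had a named transcript, all taken from the study's list of changed genes, and none of these 8 was at 0 in any library. Their summed level was 77.5, 117 and 518 CPM in Basal libraries 1, 2 and 3 and 30.5, 65.0 and 16.1 CPM with Insl3, which ranks the 6 libraries exactly as the summed synthesis enzymes do (140, 169 and 359 CPM in Basal, and 98.7, 139.7 and 64.8 CPM with Insl3). Transferrin (tfa) was the larger part of this sum in every library but Insl3 3, where it had 6.51 CPM. Without tfa the other 7 markers summed to 11.9, 14.0 and 55.5 CPM in Basal and to 6.00, 8.52 and 9.62 CPM with Insl3, so that Basal 3 was still the highest but Insl3 3 was no longer the lowest. The part of these markers in the sterol results was not tested. Both liver sums, like the synthesis enzymes, were lower with Insl3 in each of the 3 pairs. The choice of markers from genes called changed on these libraries favors such a shared direction. Of the 7 liver markers that passed the filter, 6 were lower in every pair, as were 17.0% of all transcripts. In pair 2, gcgra (0.268 CPM in Basal and 0.385 CPM with Insl3) and the filtered-out foxa1 (0.0335 and 0.193 CPM) went the other way.

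**Figure D5:**
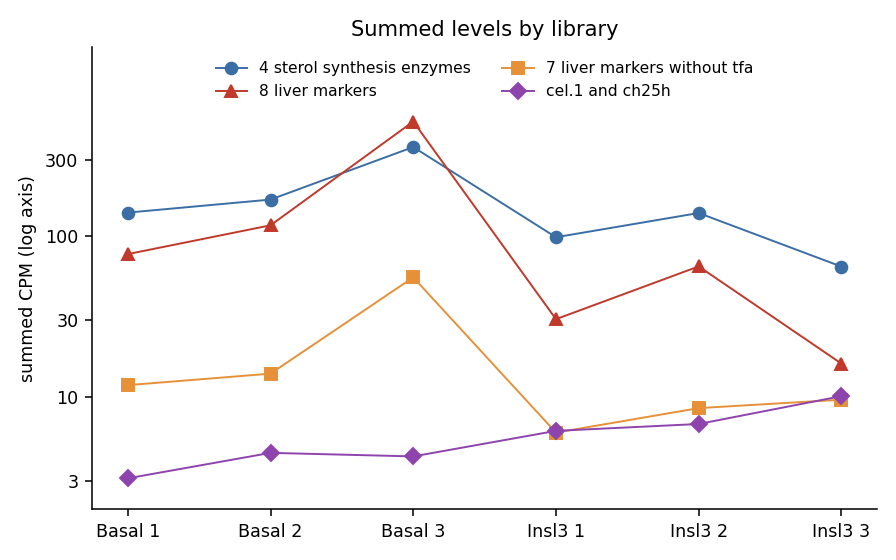
Summed CPM (log axis) in each library of the 4 synthesis enzymes, of cel.1 and ch25h, of 8 liver markers, and of 7 liver markers without tfa. Basal 3 is the highest library for the enzymes (359 CPM) and for both liver sums (518 and 55.5 CPM), and the sum of cel.1 and ch25h is highest in Insl3 3.

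Markers of other tissues differed from list to list, and several lists rest on a single named gene. A marker was named only where the study had called it changed on these libraries. Unchanged markers could not appear, so these lists do not show whether a cell type was more or less frequent with Insl3. The pancreatic elastase ela2l, the 1 of 7 exocrine pancreas markers with a named transcript, had 1.02, 1.01 and 0.854 CPM in Basal and 2.03, 1.78 and 1.503 CPM with Insl3. Unlike cel.1, it was not highest in Insl3 3. Of 6 neutrophil and macrophage markers 3 were named. The neutrophil peroxidase mpx had 0.247, 0.771 and 0.320 CPM in Basal and 0.0764, 3.90 and 7.12 CPM with Insl3, bin2a was higher in each pair, and lsp1 was lower in each pair. Their summed level was 36.3 to 41.0 CPM in Basal and 29.5 to 37.7 CPM with Insl3. The larger part of this sum was lsp1 in every library but Insl3 3, where it had 5.61 CPM, so the sum mainly follows lsp1. The erythrocyte marker slc4a1a, the 1 of 3 with a named transcript, had 1.67 to 1.87 CPM in Basal and 3.37 to 5.01 CPM with Insl3, and the germ cell marker klhl10a had 15.1 to 17.9 and 24.9 to 28.7 CPM. Of 7 intestine markers 5 were named, with summed levels of 11.0 to 21.1 CPM in Basal and 9.10 to 13.7 CPM with Insl3, and they did not go one way. Like cel.1 and ch25h, enpp7.2 (1.33, 1.24 and 1.23 CPM in Basal, and 2.71, 2.02 and 2.46 CPM with Insl3) and slc6a19b (2.88 to 3.21 and 3.28 to 7.17 CPM) were higher in each pair with no overlap of the groups, whereas npc1l1, soat2 and gpa33 had lower means with Insl3. None of these markers was at 0 in any library, and their part in the results for cel.1 and ch25h was not tested.

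Among 381 other named transcripts, the 6 whose log2 CPM followed the mean of the 4 standardized synthesis enzymes most closely over the 6 libraries were il12rb2l (r = 0.99), tfa (r = 0.99), si:ch73-106k19.5 (r = 0.99), haao (r = 0.98), mgat1b (r = 0.98) and the complement protease gene c1s (r = 0.97). The same 6 genes came first when deviations from the group means were compared, with r between 0.96 and 0.98. They are not sterol genes by their names, and tfa and haao are among the liver markers above. The complement gene c1s had 59.7, 64.2 and 155 CPM in Basal and 45.8, 63.0 and 38.6 CPM with Insl3. Of all transcripts tested, 30 reached the lowest of these r values over the 6 libraries and 124 did so for the deviations. In each case 6 of them were among the 381, and the others had no name here. The 381 all came from the study's list of genes called changed on these libraries. That choice favors a high r over the 6 libraries, so the ranking is a description only.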

How the data were processed

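Gene expression was measured by RNAseq in 6 cultured testes, 3 Basal and 3 Insl3, grouped by their sample titles. Per the labels, the authors aligned reads to GRCz10 with TopHat2 (version 2.0.12) and counted them with HTSeq (version 0.6.1); the deposited values are raw counts per Ensembl transcript. The annotation release, strand setting and counting mode are not given in the sources used here, so reads of overlapping or duplicated genes may be shared. Transcripts were named through the 409 IDs and symbols of the study's list of changed transcripts, of which 408 occur in the counts. Other transcripts of the same genes were not used here. The members and gene lists were chosen with earlier results of these data known.

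Counts were filtered with filterByExpr (minimum count 10), scaled by TMM and fitted with edgeR (version 4.0.16, R 4.3.3), a two-sided quasi-likelihood test of condition alone with Benjamini-Hochberg adjustment over 36363 transcripts. Standard errors were obtained from the fitted log2 value and the square root of its F statistic (their quotient), and pair differences use log2 CPM with a prior count of 2. Deviations from the group means of equally numbered libraries correlated across transcripts at r = 0.58 to 0.73 (at -0.51 to -0.19 for unequal numbers), above the limit of 0.1 set for a pairing. The labels do not say that a number marks 1 animal. The libraries of a group are biological replicates, each of 1 testis. Whether the testes came from separate males is not given in the sources used here, and p-values measure only the spread between these samples. Poisson intervals cover counting error only. Named genes were the 6 members, the sterol genes listed with a transcript, the 6 transcripts most similar in pattern, and marker genes. Alternatives were RLE factors, library totals, DESeq2 (version 1.42.0), other filters, the replicate block, a prior count of 0.5 and each library left out. A planned search of promoters for motifs was not run.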

Additional observations from a re-analysis of the deposited data

How the results depend on the processing

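No fitted difference changed sign under the alternatives run. Of their values, 153 stayed within 1 SD between replicates of the reported value or, for counts, within 1.5 times of it, and 16 did not. Calls at an unadjusted p of 0.05 went from 538 to 845 without a filter on low counts and 4920 with the replicate block, and it ran from 170 (without Insl3 replicate 3) to 1472 (without Basal replicate 3) with each library left out. Of the called transcripts 63.4% were lower, against 78.8% with library totals, 53.9% with DESeq2, 45.3% with the replicate block and 39.1% to 77.9% with each library left out (lowest without Insl3 replicate 1, and 49.5% without Basal replicate 3). The number of the 6 genes called ran from 0 to 5 with each library left out and was 5 with library totals, where cel.1 was lost. The replicate block ended no call among them, and with it the median log2 fold change of the synthesis enzymes was -1.02 (-0.97 for msmo1). With the libraries numbered 1 and 2 alone, chosen after seeing the data, 1 of the 6 genes was called, beside 755 over all transcripts. The median log2 fold change of the synthesis enzymes was then -0.39 and their difference from cel.1 and ch25h was -1.13. With each library left out these ran from -1.42 to -0.65 and from -2.69 to -1.61. The cause of these changes was not tested. Counts of 12 to 60 limit what can be said of cel.1.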
